A study of Mus musculus with 6 samples.

Results

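Some stretches of open chromatin belong to more than 1 gene. In the accessibility map of mouse CD8+ T cells examined here, 1626 of 24605 regions (6.61%) lay within 1 kb of an end of 2 or more different protein-coding genes, at either the start or the tail of the gene. Of these shared regions, 1589 touched 2 genes and 37 touched 3 genes, and together they took in the ends of 3047 genes. They were 152 to 3075 bp wide, and 939 of them covered the ends of at least 2 genes directly. The rule uses position alone and none of the counts.

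The study looked at the action of palmitate, a saturated fatty acid, on CD8+ T cells, which kill infected and tumour cells. The cells were of genotype WT, came from mouse pancreas, spleen and lymph nodes, and were cultured in T cell medium with 100 µM palmitate (3 libraries) or as control (3 libraries) for 48 hours. About 50000 sorted cells entered each ATAC-seq library, in which the Tn5 transposase cuts open DNA, so that reads per region measure accessibility. The labels give replicate numbers and no animals or cultures, so p-values rest on variation among these libraries alone, possibly of technical origin.

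Mammalian genes often lie head to head, with their starts close together and transcription running outwards in opposite directions from 1 open stretch. Such divergent promoters are typically rich in CpG dinucleotides and common among genes for DNA repair, mitochondria and basic cell upkeep. Open chromatin at a gene's tail is less usual and may hold an enhancer or the signal for ending transcription. Reads in a shared region cannot be assigned to either of its genes.

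Libraries held 2219136 to 3089230 counts in all regions. All 5 marker genes of CD8 T cells had an open gene end (19.2 to 103 CPM in control, where CPM is the count scaled by the TMM library size to a common total), with a summed 257 CPM in control and 269 in palmitate. None of the 3 markers of B cells and the 2 of CD4 T cells had one. Of the myeloid markers 1 of 3 had one (Itgam, at 6.33 CPM in control and 12 in palmitate), and of the pancreas markers 1 of 3 (Cela1, at 38.8 and 34.6 CPM). What part other cells have in the results was not tested. In bulk libraries a change in the mix of cells and a change within cells cannot be told apart.

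The strand of both nearest genes was known for 1220 shared regions. Of these, 551 were divergent, with the start of a minus-strand gene to the left of that of a plus-strand gene, and the starts lay a median of 101 bp apart. In a further 293 the starts also lay on opposite strands, but the annotated genes overlapped head to head. In 29 both starts were on 1 strand, in 323 the start of one gene met the tail of another, and in 24 only tails met (end-end). For the other 406 strand was not given for at least 1 gene.

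Promoters of 6 shared regions that recur below are printed here. Each is 300 bases of RefSeq GRCm38.p6 in the direction of the named gene, whose listed promoter start is base 251. At Septin2, Atm and Fto this listed start differs from the start in the gene span, which set the class of the pair. By gene spans the 2 starts lay 64 bp apart at Hdlbp/Septin2, 61 bp at Npat/Atm and 76 bp at Fto/Rpgrip1l. Capitals mark matches, on either strand, to 7 motifs. These were the GC box of Sp factors (GGGCGG), the CCAAT box (CCAAT), the ETS motif (CCGGAAGT), the TATA box (TATAAA), the NRF1 motif, the cyclic AMP response element (CRE, TGACGTCA) and the YY1 motif. None of them contains another. The first 3 windows are from regions that rose in palmitate and are, in order, Septin2 (chr1:93478743-93479042, plus strand), Fau (chr19:6057697-6057996, plus strand) and Ddit3 (chr10:127290543-127290842, plus strand). The next 2 belong to textbook pairs, Atm (chr9:53536622-53536921, minus strand) and Psmb9 (chr17:34187281-34187580, minus strand). The last, Fto (chr8:91313275-91313574, plus strand), is from a strong region that did not rise.
Septin2: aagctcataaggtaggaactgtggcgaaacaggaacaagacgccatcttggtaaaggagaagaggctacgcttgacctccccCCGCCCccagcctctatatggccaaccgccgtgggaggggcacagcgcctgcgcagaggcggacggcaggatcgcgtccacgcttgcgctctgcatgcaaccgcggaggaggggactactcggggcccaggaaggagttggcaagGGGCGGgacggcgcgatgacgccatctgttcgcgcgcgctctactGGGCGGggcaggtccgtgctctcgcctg
Fau: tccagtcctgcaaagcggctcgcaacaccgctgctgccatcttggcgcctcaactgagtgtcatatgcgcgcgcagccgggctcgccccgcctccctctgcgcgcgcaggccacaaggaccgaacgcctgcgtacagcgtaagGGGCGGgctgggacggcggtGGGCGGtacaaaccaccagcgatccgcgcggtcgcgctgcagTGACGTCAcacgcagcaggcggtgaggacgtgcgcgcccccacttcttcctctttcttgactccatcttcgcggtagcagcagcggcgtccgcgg
Ddit3: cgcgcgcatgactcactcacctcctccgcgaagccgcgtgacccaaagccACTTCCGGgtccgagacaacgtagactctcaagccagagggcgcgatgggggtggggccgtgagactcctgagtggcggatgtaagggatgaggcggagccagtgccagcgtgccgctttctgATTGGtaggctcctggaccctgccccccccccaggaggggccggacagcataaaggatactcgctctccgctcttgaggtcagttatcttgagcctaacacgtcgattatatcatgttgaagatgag
Atm: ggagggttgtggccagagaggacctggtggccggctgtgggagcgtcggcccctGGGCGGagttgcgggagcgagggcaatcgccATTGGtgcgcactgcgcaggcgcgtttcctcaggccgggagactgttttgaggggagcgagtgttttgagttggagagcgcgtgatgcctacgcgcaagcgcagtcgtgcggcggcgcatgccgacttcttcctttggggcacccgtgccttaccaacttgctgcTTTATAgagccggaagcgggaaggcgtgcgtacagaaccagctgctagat
Psmb9: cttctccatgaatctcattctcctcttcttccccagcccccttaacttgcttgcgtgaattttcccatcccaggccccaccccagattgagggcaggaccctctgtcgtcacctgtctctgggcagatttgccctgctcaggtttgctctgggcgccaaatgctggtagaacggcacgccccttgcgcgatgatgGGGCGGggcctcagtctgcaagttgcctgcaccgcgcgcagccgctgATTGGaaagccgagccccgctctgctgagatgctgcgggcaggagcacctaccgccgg
Fto: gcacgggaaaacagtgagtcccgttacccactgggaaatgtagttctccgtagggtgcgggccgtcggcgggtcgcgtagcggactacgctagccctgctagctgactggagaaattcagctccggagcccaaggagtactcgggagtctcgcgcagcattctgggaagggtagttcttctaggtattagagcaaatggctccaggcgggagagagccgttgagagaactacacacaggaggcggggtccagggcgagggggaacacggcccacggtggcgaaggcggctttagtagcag
The annotated start of the partner gene lay inside 5 of the 6 windows, at base 175 (Hdlbp), 59 (Mrpl49), 33 (Npat), 25 (Tap1) and 17 (Rpgrip1l), and that of Mbd6 at base 327, beyond the end of the Ddit3 window. The windows held 17 to 39 CpG dinucleotides. Matches were 3 GC boxes at Septin2, 2 GC boxes and a CRE at Fau, an ETS motif and a CCAAT box at Ddit3, a GC box, a CCAAT box and a TATA box at Atm, and a GC box and a CCAAT box at Psmb9. The Fto window, placed by its listed promoter start and not by its gene span, held none of the 7 motifs.

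Shared regions were stronger than other gene ends. Their median level was 63.3 CPM, or 96.3 CPM per kb of region, against 44 CPM and 78.4 CPM per kb at the 7782 tested regions at the end of 1 gene, and 13.1 CPM inside genes. They were also wider (median 630 against 549 bp). The rule favours width, since distance runs from the region's edge and a wider region reaches a second gene end more easily. In all 6 peak lists lay 91.6% of shared regions, against 83.1% of regions at the end of 1 gene and 60.7% of all tested regions. Of the shared regions 30% fell in the strongest decile of all tested regions. The median peak score, which is the authors' own, was 497 to 641 over shared regions in the control lists and 681 to 810.5 in the palmitate lists. Regions at the end of 1 gene also had higher scores in the palmitate lists, at 501 to 579 against 362 to 456 in the control lists. Scores of lists called separately are not on a common scale.

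Level followed the arrangement of the genes. Divergent regions were the strongest class, at a median of 119 CPM per kb, followed by overlapping starts (92.9) and start-end regions (89.4). The end-end regions stood at 39.5 CPM per kb, near the 38.5 of 338 regions at the tail of 1 gene, while 5895 regions at the start of 1 gene stood at 85.6. Of the end-end regions 17 of 24 fell in the weaker 5 deciles. Among divergent regions, those with starts at least 100 and under 300 bp apart had a median of 102 CPM (181 regions), and those with starts under 100 bp apart 68.8 CPM (271 regions).

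All 1626 shared regions passed the count filter. With palmitate, 497 of them (30.6%) were higher and 18 (1.11%) lower in the edgeR quasi-likelihood test at a false discovery rate of 0.05. The background was 11.9% higher and 12.7% lower among all 24316 tested regions, and regions at the end of 1 gene had 23.9% higher and 2.75% lower. The median log2 fold change was 0.18 at shared regions, 0.13 at the end of 1 gene and -0.05 over all tested regions. All 3 palmitate libraries lay above all 3 controls in 721 shared regions (44.3%, background 17.9%) and below them in 75 (4.61%, background 21%).

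**Figure D1:**
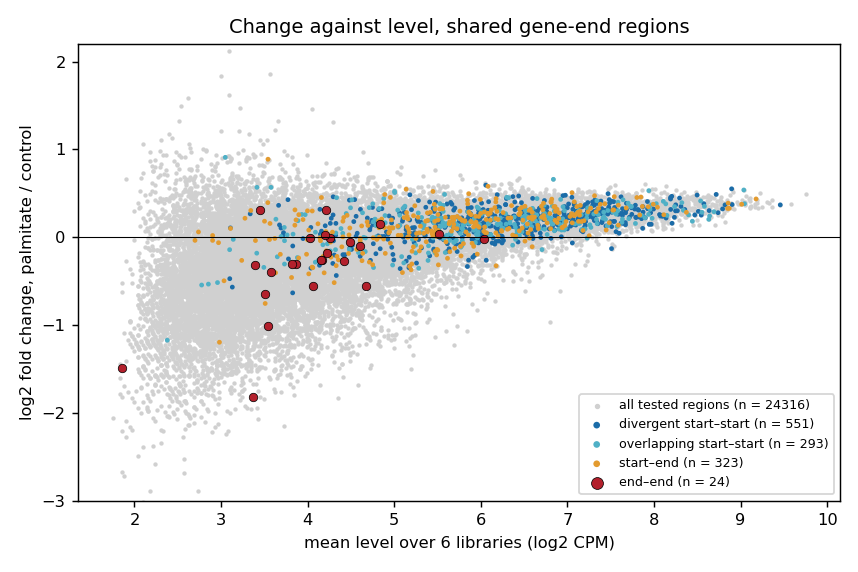
Log2 fold change of palmitate over control (y axis) against the mean level over 6 libraries in log2 CPM (x axis). Each point is a region, all 24316 tested regions are grey and 4 classes of shared regions are coloured, and the fold change rises with level while most end-end regions lie to the left and below 0.

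The share of reads that fell in shared regions was 14.2%, 13.7% and 14.1% in the controls and 15%, 15.1% and 15.2% in the palmitate libraries. The groups did not overlap, and the means were 14 ± 0.227% and 15.1 ± 0.0879% (SD, n = 3; exact permutation test, two-sided, p = 0.1, the smallest that 3 against 3 can give). Regions at the end of 1 gene gained too, from 51.1 ± 0.267% to 54.5 ± 0.228% (SD, n = 3; exact permutation p = 0.1). Reads in shared regions per read in regions at the end of 1 gene came to 0.278, 0.27 and 0.274 in controls and 0.277, 0.277 and 0.279 in palmitate. On this ratio the groups overlapped (exact permutation p = 0.3, n = 3 per group).

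Fold changes rose with strength in this matrix, and from the eighth to the strongest decile shared regions were close to other gene ends. In the strongest decile 344 of 488 shared regions were higher (70.5%), against 71.9% of 1590 regions at the end of 1 gene and 70.5% of all regions of that decile. The median log2 fold change there was 0.27 in all 3 sets. In the ninth decile 29.6% of shared regions and 32.6% of those at the end of 1 gene were higher, and in the eighth 9.42% and 11.9%. In the weaker 5 deciles, which hold 188 shared regions, at most 1 shared region per decile was higher. Medians lay further apart in some of these deciles. They were -0.04 at shared regions (n = 9) and -0.38 at the end of 1 gene (n = 202) in the weakest decile. In the fourth they were -0.02 (n = 54) and -0.12 (n = 427), and in the third -0.19 (n = 30) and -0.19 (n = 321).

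**Figure D2:**
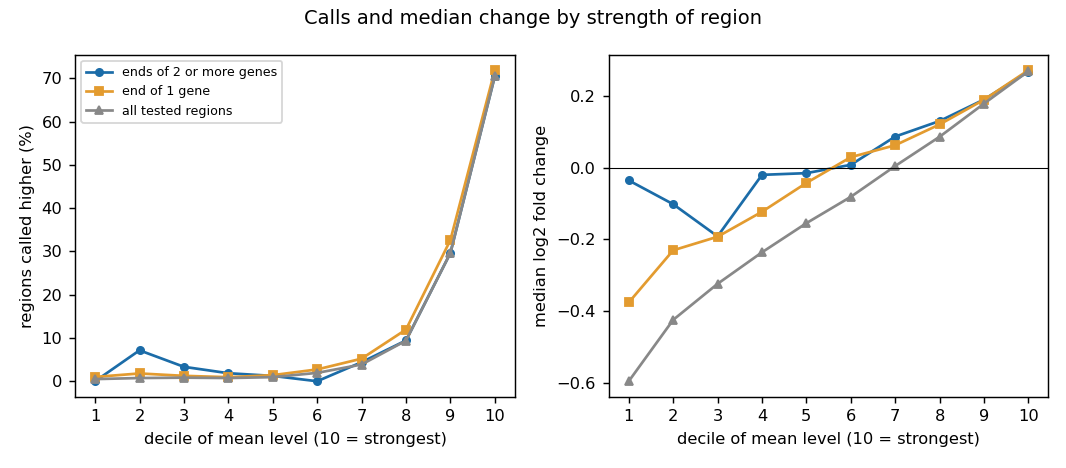
Percentage of regions called higher in palmitate (left) and median log2 fold change (right) in each decile of mean level, for regions at ends of 2 or more genes, at the end of 1 gene and for all tested regions. The 3 lines meet in the strongest decile at about 70.5% to 71.9% called and a median of 0.27.

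The scaling decided how many shared regions were called. When the dependence of a library's counts on the strength of a region was taken out first (trended offsets), 30 were higher and 22 lower, with background shares of 2.05% and 3.89% (5.94% in either direction), and the median log2 fold change was 0.03. Of the 497 higher and 18 lower calls, 29 and 5 were also made with trended offsets in the same direction. With total counts as scaling 221 were higher and 55 lower, and the median over all regions moved from -0.05 to -0.16, so each fold change is relative to that centre. Higher calls thus made up 96.5% of calls at shared regions with TMM, 80.1% with total counts and 57.7% with trended offsets. In the whole matrix 2894 regions were higher and 3078 lower with TMM, and 1282 and 4331 with total counts. Removal of the trend left 498 and 947 there. Regions at the end of 1 gene had 1858 and 214 with TMM, and 196 and 103 once the trend was removed. By library, the lower calls at shared regions with TMM numbered 10 without control 3 or palmitate 2 and 9 without palmitate 3. The trended calls were 12 higher and 11 lower without control 1, 11 and 9 without control 3, 20 and 14 without palmitate 1, 14 and 8 without palmitate 2, 8 and 10 without palmitate 3, and 36 and 31 without control 2.

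With TMM, calls differed by the kind of end. Of 551 divergent regions 208 were higher and 1 was lower (median log2 fold change 0.20), of 293 with overlapping starts 89 and 1 (0.17), and of 29 with starts on the same strand 5 and 0 (0.15). Of 323 start-end regions 82 were higher and 4 lower (0.17). Of 24 end-end regions 0 were higher and 4 lower, with a median of -0.26 and 5 fold changes above 0. The 4 lower make 16.7%, beside 12.7% over all tested regions and 15.3% to 25% in each of the weaker 5 deciles. The end-end median was -0.14 without control 1 and -0.15 without palmitate 1. With trended offsets the classes lay close together: 7 divergent regions were higher and 7 lower, 8 and 2 of those with overlapping starts, and 7 and 3 start-end regions. Trended medians were 0.02, 0.02 and 0.05 in these classes and -0.05 at end-end regions, where the median turned to 0.02 without control 1 or palmitate 1. In limma-voom 0 were higher and 5 lower, in the DESeq2 Wald test 0 and 1, with trended offsets 0 and 1, and in edgeR without palmitate 2 also 0 and 1. With trended offsets and without control 2, 1 was higher. The share of reads in end-end regions was 0.0521%, 0.0499% and 0.0498% in controls and 0.0412%, 0.0405% and 0.0419% in palmitate. The palmitate libraries all lay below the controls (exact permutation p = 0.1, n = 3 per group), while in divergent regions they all lay above, at 5.98% to 6.05% against 5.46% to 5.58%.

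**Figure D3:**
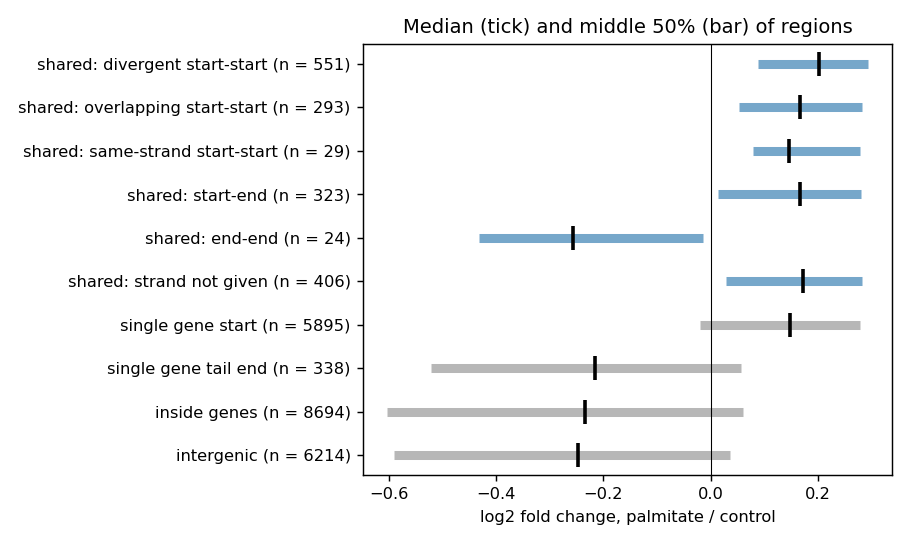
Median (tick) and middle 50% (bar) of log2 fold changes of palmitate over control by class of region, shared classes in blue and others in grey. With TMM every shared class with a start has its median above 0, and the end-end class lies at -0.26, beside the -0.21 of the tail of 1 gene (both -0.05 with trended offsets).

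With TMM, tails of 1 gene had 11 of 338 higher, 60 lower and a median of -0.21, while starts of 1 gene had 1544 of 5895 higher and 103 lower (median 0.15). With trended offsets the tails had 5 higher, 11 lower and a median of -0.05, and the starts 144 higher, 67 lower and a median of 0.05. In start-end regions the open stretch mostly sat on the start. The region covered the start alone in 221 of 323, both ends in 46, the tail alone in 2 and neither in 54. Where it covered the start alone, 62 were higher and 3 lower (median 0.18). Where it covered neither, 9 were higher and 1 lower (median 0.05), at a median of 34.2 CPM against 53.4.

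Among divergent regions, those with starts at least 100 and under 300 bp apart had 91 of 181 higher (50.3%), and those under 100 bp apart 75 of 271 (27.7%). From 300 to under 1000 bp 36 of 85 were higher. The first group was also the stronger one, as given above, and with trended offsets 2 of its regions were higher and 3 lower. At the limit of the rule, the members with the farthest second gene were Stat5a/Stat5b (1000 bp, log2 fold change 0.05), Ncoa4/Msmb (0.28) and Kdm4d/Cwc15 (995 bp, -0.26). Just outside it lay regions at Trp53 with Wrap53 at 1002 bp (0.24), at Arhgef1 with Cd79a at 1004 bp (0.18) and at Mus81 with Cfl1 at 1004 bp (0.02).

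The region with the smallest p lay at the overlapping starts of Ap2a1, which encodes part of the clathrin adaptor AP-2, and Tsks, a gene of the testis (chromosome 7, 44929413 to 44930036). It had 443, 401 and 441 CPM in the controls and 618, 618 and 627 CPM in the palmitate libraries. The groups were far apart (log2 fold change 0.54 with an SE of 0.056, adjusted p 2.1e-07 in edgeR), and with trended offsets 0.15 remained (adjusted p 0.0336). The starts of Samd4b, an RNA-binding protein, and Gmfg, an actin regulator of leukocytes, lay 1278 bp apart at a region that went from 386 ± 23.2 to 566 ± 14 CPM (SD, n = 3; log2 fold change 0.55).

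At the divergent starts of Hdlbp, the RNA-binding protein vigilin, and Septin2, a GTPase of the cytoskeleton, controls 1 to 3 had 298, 299 and 306 CPM and palmitate 1 to 3 had 401, 427 and 431 CPM. All palmitate values lay above all controls (chromosome 1, 93478194 to 93479233; log2 fold change 0.48 with an SE of 0.058, adjusted p 1.55e-06 in edgeR), and the trended value was 0.13 (adjusted p 0.112). The 10 higher regions with the smallest p also included Agpat1/Rnf5 (an acyltransferase of phospholipid synthesis and a ubiquitin ligase of the endoplasmic reticulum), at 0.51. Rab5b/Pmel (a GTPase of early endosomes and a melanosome protein) had 0.50, Mylpf/Tbc1d10b (a muscle myosin light chain and a regulator of Rab GTPases) 0.49, Prr11/Ska2 (Ska2 acts at the kinetochore) 0.47 and LOC114841036/Fkbp2 (Fkbp2 is a prolyl isomerase) 0.41. None of these 5 passed with trended offsets. The counts do not say which gene of a pair a change belongs to.

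The remaining members of that list passed under all 14 alternatives. At Cebpg, a bZIP factor that pairs with C/EBP and ATF proteins, and Gm45095, control libraries had 83.7, 91.8 and 88.4 CPM, and those with palmitate 142, 152 and 124 CPM (chromosome 7, 35056158 to 35056792). Its change of 0.66 on the log2 scale (SE 0.085, adjusted p 3.58e-06 in edgeR) was the highest among shared regions of the strongest decile, and 0.44 remained with trended offsets (adjusted p 0.00138). At Dyrk1b, a protein kinase, and Fbl, the rRNA methyltransferase fibrillarin, the region went from 148 ± 1.61 to 224 ± 20.7 CPM (SD, n = 3; log2 fold change 0.60, trended 0.32 with adjusted p 0.00292).

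**Figure D4:**
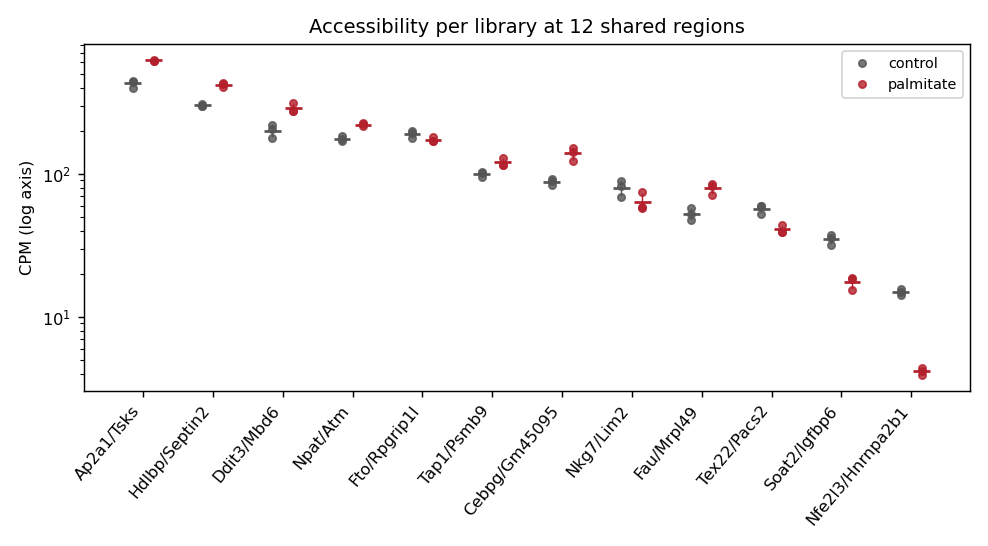
CPM (log axis) in each of 3 control (grey) and 3 palmitate (red) libraries at 12 shared regions, with horizontal lines at group means and vertical lines of 1 SD. Palmitate points lie above the controls at Ap2a1/Tsks, Hdlbp/Septin2, Ddit3/Mbd6 and Cebpg/Gm45095, and below them at Tex22/Pacs2, Soat2/Igfbp6 and Nfe2l3/Hnrnpa2b1. At Fto/Rpgrip1l and Nkg7/Lim2 the groups overlap, since the highest palmitate point lies above the lowest control.

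Of the start-end regions, that with the smallest p lay near the start of Tomm40, the channel of mitochondrial protein import, and the tail of Nectin2, an adhesion molecule. It went from 493 ± 45.7 to 665 ± 11 CPM (SD, n = 3; log2 fold change 0.44 with an SE of 0.059, adjusted p 5.24e-06 in edgeR), with 0.04 left under trended offsets (0.641). Dbp, a transcription factor of the circadian clock, whose start lay by the tail of Car11, went from 194 ± 12.3 to 266 ± 14 CPM, and Hnrnpul1/Axl (an RNA-binding protein and a receptor kinase) from 188 ± 4.63 to 257 ± 8.71 CPM (SD, n = 3). The strongest shared regions included Ubxn6/Hdgfl2, Khsrp/Slc25a41 and Cdca2/Kctd9, which rose by 0.37, 0.33 and 0.39 with TMM and had -0.04, -0.06 and 0.00 with trended offsets.

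The lower regions were few and mostly weak. The first by p lay between the tails of Nfe2l3, a CNC bZIP factor, and Hnrnpa2b1, an RNA-binding protein (chromosome 6, 51458960 to 51459974), where the tails were 1662 bp apart. Raw counts were 36, 43 and 44 in the controls and 10, 13 and 11 in the palmitate libraries. This is the deepest fall among the 18 lower regions, at -1.82 ± 0.28 on the log2 scale (SE; edgeR adjusted p 2.56e-05), and it passed in 14 of 14 alternatives (trended -1.45, 0.00189).

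The region at Soat2, which esterifies cholesterol, and Igfbp6, which binds insulin-like growth factors, had 31.8, 35.6 and 37.4 CPM in controls and 18.5, 18.7 and 15.3 CPM in palmitate (chromosome 15, 102150156 to 102150868). All palmitate values lay below all controls, with means of 17.5 and 34.9 CPM (log2 fold change -0.998 with an SE of 0.17, adjusted p 6.85e-05 in edgeR; trended -0.92, 0.000999). At Tex22 and Pacs2, a sorting protein at contacts of endoplasmic reticulum and mitochondria, controls had 52.3, 59.2 and 59.8 CPM and palmitate 39.4, 39.4 and 43.7 CPM (log2 fold change -0.49, trended -0.56 with adjusted p 0.00382). At Slc35b2, a Golgi transporter, and Hsp90ab1, a cytosolic HSP90 chaperone, the region fell from 12.9 ± 2.02 to 5.24 ± 1.27 CPM (SD, n = 3; trended adjusted p 0.0466). These 4 regions, 3 of them without strand, were lower under all 14 alternatives.

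Other lower regions among the 10 with the smallest p were Hoga1/Ankrd2 (-1.20), Ccdc33/Cyp11a1 (-1.01), Slf1/2210408I21Rik (-0.67), Abcc10/Dlk2 (-0.56) and Gm26637/Eif2ak2 (Eif2ak2 is the kinase PKR, -1.17). None of these 5 passed with trended offsets. Libraries whose removal ended a call were palmitate 2 at Ccdc33/Cyp11a1 (edgeR adjusted p 0.108), controls 1 and 3 and palmitate 2 at Abcc10/Dlk2 (0.0639, 0.125 and 0.125), control 3, palmitate 1 and palmitate 3 at Slf1 (0.052, 0.0632 and 0.0644), and control 2, palmitate 1 and palmitate 3 at Gm26637/Eif2ak2 (0.0716, 0.0733 and 0.0884). Ccdc33/Cyp11a1 lies between the tails of Ccdc33 and of Cyp11a1, the mitochondrial enzyme that starts steroid synthesis. The fourth lower end-end region, Eif4a2/Rfc4, had raw counts of 10, 14 and 11 in controls and 7, 3 and 2 in palmitate. Its log2 fold change of -1.49 became 0.08 with trended offsets, and leaving out control 2, palmitate 2 or palmitate 3 ended its call (adjusted p 0.0504, 0.123 and 0.123 in edgeR). Of the remaining 5 lower regions besides those of the gene lists, named after their values were seen, Ccl3/Ccl4, a pair of chemokine genes of activated T cells, had -0.51 (adjusted p 0.0429 in edgeR). Abi3/Gngt2 had -0.77, Ttc21a/Gorasp1 -0.63, Aunip/Paqr7 -0.40 and Trim14/Coro2a -0.37. Each lost its call in 4 or more of the 6 fits with a library left out, and none passed with trended offsets.

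The other 20 end-end regions did not pass in the reported fit, although Clstn1/Pik3cd passed with total counts (edgeR adjusted p 0.0235), in limma-voom (0.0455) and without palmitate 1 (0.0393), and Tns2/Spryd3 with total counts (0.0344). Their log2 fold changes ran from -0.64 at Tns2/Spryd3 (edgeR adjusted p 0.07) and -0.56 at Clstn1/Pik3cd (0.0543, the latter beside the tail of the PI3K delta catalytic subunit) to 0.31 at Uggt2/Dnajc3 and Ap1g2/Thtpa. The strongest of them, Erbb2/Mien1 at 64.7 CPM and Espn/Tnfrsf25 at 45.1 CPM, had -0.02 and 0.04.

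Of the pairs taken from textbook knowledge 12 of 13 had a shared region, 13 regions in all, and Afmid/Tk1 had none. Npat, which drives histone genes at the start of S phase, and Atm, the kinase of the DNA damage response, had 170, 174 and 183 CPM in controls and 225, 222 and 214 CPM in palmitate. Palmitate lay above control throughout (log2 fold change 0.33 with an SE of 0.066, adjusted p 0.000603 in edgeR; trended 0.04, 0.748). The start shared by Ddit3, the stress factor CHOP, and Mbd6 had 207, 177 and 218 CPM in controls and 277, 314 and 276 CPM in palmitate, and passed with trended offsets (0.23, adjusted p 0.0247).

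Tap1, the peptide transporter of antigen presentation, and Psmb9, an immunoproteasome subunit, had 104, 95.5 and 101 CPM without palmitate, against 116, 115 and 130 CPM with it. This rise of 0.27 ± 0.082 (SE; edgeR adjusted p 0.0168) was lost without palmitate 3 (0.116), with total counts (0.171), in the DESeq2 Wald test (0.0619) and with trended offsets (0.759). Prkaca/Samd1 and Cox4i1/Emc8, the latter with Gm27021 at the same place, were higher by 0.39 and 0.22. At Prkaca/Samd1 the groups overlapped, and the call was lost without control 2 or palmitate 2 (0.0504 and 0.0689), with total counts (0.0599) and with trended offsets (0.263). The call was lost at Cox4i1/Emc8 without control 2, control 3, palmitate 1 or palmitate 3 (0.077, 0.068, 0.125 and 0.0576), with total counts (0.289), in the DESeq2 Wald test (0.08) and with trended offsets (0.903). Hspe1/Hspd1, the pair of the mitochondrial chaperonin, overlapped between groups, at 151, 156 and 193 CPM in controls and 172, 203 and 174 CPM in palmitate (log2 fold change 0.13, edgeR adjusted p 0.257), and passed without control 3 (0.0301). Prkdc/Mcm4, Ppat/Paics, Surf1/Surf2, Sirt3/Psmd13 and the regions of Trp53/Wrap53 did not pass, with log2 fold changes of 0.06 to 0.28. Of these, Ppat/Paics passed without control 1 (edgeR adjusted p 0.039) and with DESeq2 size factors (0.0494), and Sirt3/Psmd13 without control 3 (0.0328).

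Genes of the mitochondrial ribosome and respiratory chain made up a large list, with 84 of 187 genes at 87 shared regions. Of these regions 29 were higher and 0 lower (median log2 fold change 0.17), and with trended offsets 3 were higher and 1 lower. The 29 higher make 33.3%, close to the 30.6% of all shared regions. Over all tested regions the shares were 11.9% higher and 12.7% lower, and of this list's 90 regions at the end of 1 gene 11 were higher and 4 lower. Levels were not matched in this comparison, and the other lists below differ in it. Fau, a ribosomal protein fused to a ubiquitin-like domain, and Mrpl49, of the mitochondrial ribosome, shared a region with 52.3, 47.9 and 57.5 CPM in controls and 71, 84.3 and 82.1 CPM in palmitate. The rise of 0.59 ± 0.11 (SE; edgeR adjusted p 0.000138) also passed with trended offsets (0.45, 0.00801). Atp5h, of the ATP synthase, and Kctd2 went from 60.3 ± 1.39 to 84.4 ± 4.79 CPM (SD, n = 3; trended adjusted p 0.0362). Ppp1r10/Mrps18b and Psma2/Mrpl32 rose by 0.45 and 0.46 and did not pass with trended offsets (0.212 and 0.0552).

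The counts of the following lists stand beside 30.6% higher among all shared regions and 11.9% over all tested regions. The lists also differ in level, at medians of 128 CPM (repair), 76.8 (translation), 105 (chaperone), 70.9 (zinc finger) and 233 (stress). All shared regions had 63.3 CPM, and in the strongest decile 70.5% of all tested regions were higher. The 4 higher regions of the stress list all lay in that decile. Of 17 shared regions of DNA repair and replication genes 8 were higher and 0 lower (median 0.25), among them Nbr1/Brca1, at 196, 186 and 183 CPM in controls and 230, 228 and 255 CPM in palmitate, and Rpa1/Smyd4 (0.31, lost with total counts at 0.0528). Of 57 of RNA polymerase, translation and ribosome genes 17 were higher (29.8%) and 2 lower (0.19), with Eif2a/Serp1, Polr2a/Slc35g3, Eif4a1/Senp3 and Polr2i/Tbcb/Ovol3 at 0.42, 0.34, 0.35 and 0.36. Of 35 of proteasome and chaperone genes 14 were higher and 1 lower (0.21), with Dnajc30/Bud23 at 0.53, Tbccd1/Dnajb11 at 0.43, Cct7/Pradc1 at 0.35 and Ttc41/Hsp90b1 at 0.33. Of 37 of zinc finger genes 11 were higher (29.7%) and 0 lower (0.18), with Zfp36l1/Gm52006, Lpxn/Zfp91, Zfp654/Cggbp1 and Zfp131/Gm46390 at 0.46, 0.43, 0.36 and 0.35. With trended offsets no region passed in the repair, translation and zinc finger lists, and 1 higher and 2 lower in the chaperone list, where Dnajc30/Bud23 was the higher one (0.0219). Of 5 shared regions of stress response genes 4 were higher, Ddit3/Mbd6, Ttc41/Hsp90b1, Atp6v1d/Eif2s1 (0.25, lost with total counts at 0.101) and Pdia3/Catsper2 (0.26), the last lost without control 3 or palmitate 3 (edgeR adjusted p 0.0548 and 0.0875) and with total counts (0.16). With trended offsets Ddit3/Mbd6 alone of these 5 passed, against 0.88, 0.69 and 0.951 at the other 3 that rose. At the end of 1 gene, 4 of 22 regions were higher in the repair list and 42 of 128 in the translation list. There 18 of 67 were higher in the chaperone list, 28 of 235 in the zinc finger list and 8 of 19 in the stress list. Lower ones numbered 1, 3, 1, 7 and 0 in these lists.

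Clustered histone genes, which lie in tight arrays and are transcribed in S phase, had 14 shared regions, 1 higher and 1 lower, with a median of -0.09. At the end of 1 gene this list had 17 regions, 0 higher and 4 lower. H3c7/H2bc9 had 41, 30.6 and 38.4 CPM in controls and 46.1, 51.6 and 48.3 CPM in palmitate (0.42, edgeR adjusted p 0.0182). H3c2/H2ac4 had 13.9, 12 and 14.3 CPM in controls and 9.46, 8.49 and 5.75 CPM in palmitate (-0.75, 0.0321). Neither passed with trended offsets (0.079 and 0.326), and the H3c7/H2bc9 call ended without control 2, palmitate 2 or palmitate 3 (0.0919, 0.0803 and 0.052). That at H3c2/H2ac4 ended without control 1 (0.0745), control 3 (0.115), palmitate 2 (0.0614) or palmitate 3 (0.169). Histone genes are near-identical copies, and reads may be split between them.

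Of the 7 shared regions of T cell effector and receptor genes, 2 were higher, Tap1/Psmb9 and Bcl2l12/Irf3 (0.31), and 1 was lower. The 2 make 28.6%, against 30.6% of all shared regions and 11.9% over all tested regions. At the end of 1 gene this list had 31 regions, 2 higher and 3 lower. The list also held genes of antigen presentation and of the IRF and NF-kB families. The 2 higher regions entered it through such genes (Tap1, Psmb9 and Irf3) and not through an effector or receptor gene. Leaving out control 1, control 2, palmitate 1 or palmitate 3 ended the call at Bcl2l12/Irf3 (adjusted p 0.0828, 0.0895, 0.118 and 0.0518 in edgeR), as did total counts (0.175), trended offsets (0.372) and the DESeq2 Wald test (0.0945). The lower one was the start of Nkg7, a protein of cytotoxic granules, near the tail of Lim2, with 89.3, 69.2 and 81.6 CPM in controls and 57.5, 58.4 and 74.8 CPM in palmitate. The groups overlapped, since palmitate 3 lay above control 2. Its log2 fold change of -0.32 (edgeR adjusted p 0.0291) was -0.48 with trended offsets (0.00727), and with TMM leaving out control 1, control 3, palmitate 1 or palmitate 2 ended the call (0.143, 0.138, 0.138 and 0.142), as did the DESeq2 Wald test (0.185).

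Trended offsets, read against regions of like strength, brought out other members. Of the 488 shared regions in the strongest decile 7 had a log2 fold change below 0 with TMM (1.43%), as did 1.89% of regions at the end of 1 gene there. At Fto, an RNA demethylase, and Rpgrip1l, a protein of the cilium, controls had 191, 200 and 177 CPM and palmitate 171, 180 and 169 CPM. The groups overlapped and the change of -0.13 ± 0.07 (SE) did not pass with TMM (edgeR adjusted p 0.179), while trended offsets gave -0.40 ± 0.067 (SE; 0.000384). Mmachc/Ccdc163 (trended -0.35), Tecpr2/Cinp (-0.32), Ap3m1/Adk (-0.30) and Mastl/Yme1l1 (-0.26) of these 7 passed in the same way. The 7 were picked by a fold change below 0 in a decile with a median of 0.27, so low trended values follow from that choice. With trended offsets 13 of the 488 shared regions there were lower and 10 higher. Of 1590 regions at the end of 1 gene 43 were lower and 37 higher, and of all 2432 regions 80 and 55. Among weak members, Wnk4/Vps25 (7.73 ± 0.862 to 14.2 ± 1.29 CPM), Reep3/Jmjd1c (13.9 ± 0.705 to 23 ± 2.32 CPM) and Pawr/Gm40755 (5.32 ± 1.09 to 9.87 ± 1.24 CPM; SD, n = 3) were higher with TMM and with trended offsets. Their trended log2 fold changes were 1.19, 0.89 and 1.32. With TMM, Wnk4/Vps25 was lost without palmitate 3 (edgeR adjusted p 0.0527) and Pawr/Gm40755 without control 3, palmitate 1 or palmitate 2 (0.0893, 0.072 and 0.0858).

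Regions inside genes in general were more often lower than higher (19.6% and 4.3% of 8694 tested), and those inside genes of shared regions were too. Of the 497 higher regions 170 had at least 1 tested region inside one of their genes, and in 57 of these at least 1 such region was lower. Of the 325 regions inside these genes 20 were higher (6.15%) and 76 lower (23.4%), and of the 662 inside the genes of shared regions that were not called 34 were higher and 116 lower (17.5%). Of those uncalled shared regions 366 had a tested region inside a gene, and 86 had a lower one. With trended offsets 11 of the 325 were higher and 17 lower, beside 1.87% and 5.65% of all tested regions inside genes. Of the 37 regions at ends of 3 genes 11 were higher (29.7%) and 0 lower with TMM, and 0 passed with trended offsets. All shared regions had 30.6% higher and 1.11% lower, and all tested regions 11.9% and 12.7%. Among the 11 were Nup62/Il4i1b/Atf5 at 0.33, Naa38/Cyb5d1/Tmem88 at 0.35 and Rad17/Ak6/Taf9 at 0.30 (the last lost with total counts, edgeR adjusted p 0.0948).

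Promoter letters also differed between arrangements. In the 300-base windows, the median number of CpG dinucleotides was 24 at 1058 promoters of divergent regions, 22 at 5697 promoters that stood alone in an open region, and 13 over 17492 protein-coding promoters of the table. The ETS motif was found in 12.5% of divergent and 15.6% of overlapping promoters, 12.6% of 317 promoters at start-end regions, 8.41% of lone ones and 5.28% of all. The YY1 motif was in 3.88% of divergent, 1.05% of overlapping, 1.70% of lone and 0.972% of all promoters, and NRF1 in 3.4%, 1.23%, 2.46% and 1.33%. The GC box was in 67.1% of divergent and 69.7% of lone promoters (all 46.3%), the CCAAT box in 43.8% and 40.2% (all 39.2%), and the CRE in 3.88% and 3.76% (all 2.33%). The TATA box was in 5.10% of divergent and 6.69% of lone promoters, against 13.3% of all. Windows of neighbouring starts overlap, so 1 match can count for both genes.

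**Figure D5:**
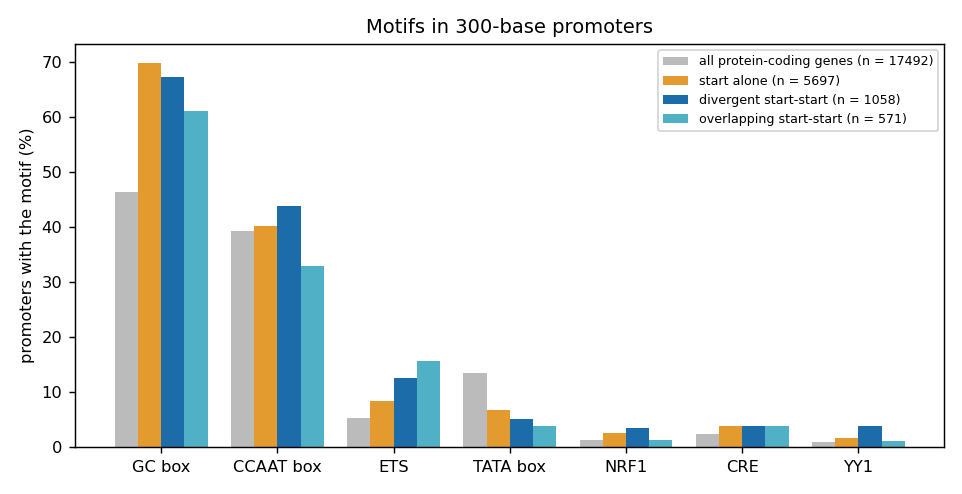
Percentage of 300-base promoters that hold each of 7 motifs on either strand, for all protein-coding genes of the table, starts alone in an open region, divergent starts and overlapping starts. ETS is highest at overlapping (15.6%) and divergent (12.5%) starts, and TATA is highest over all genes (13.3%).

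Among the 844 regions with starts on opposite strands, 665 had a GC box in at least 1 of the windows, and 37.9% of these were higher in palmitate, at a median of 82 CPM. Of the 179 without one 25.1% were higher, at 54.2 CPM. With an ETS motif 28.2% of 149 regions were higher (67.7 CPM), and without it 36.7% of 695 (77.6 CPM). With a CCAAT box 39.5% of 446 were higher (90.8 CPM) and without it 30.4% of 398 (62.8 CPM). With the NRF1 motif 33.3% of 30 were higher (67.5 CPM) and without it 35.3% of 814 (75.8 CPM). With a CRE 42.5% of 40 were higher (76.2 CPM) and without it 34.8% of 804 (75.3 CPM). In each of these comparisons the group with more higher calls was also the stronger one. With a TATA box 36.9% of 65 were higher (57.1 CPM) and without it 35% of 779 (76.9 CPM), and with the YY1 motif 38.2% of 34 (73.6 CPM) and without it 35.1% of 810 (75.3 CPM), so there the order of levels was the opposite. A match is a stretch of letters and no measured binding site.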

How the data were processed

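ATAC-seq was measured in 3 control and 3 palmitate libraries, grouped by their titles and treatment labels. The protocol text names palmitate for all 6. Per the submitters' processing notes, MACS2 2.2.8, edgeR 3.40.2, Bowtie2 2.5.1, Trim Galore 0.6.10, Picard 2.23.8 and the build mm10 were used. How reads were shifted, merged into consensus regions and counted is not stated in the labels. Raw counts fill the matrix as deposited by the authors. The peak lists hold a score per peak, deposited by the authors for each library.

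All 24605 regions were fitted with the edgeR quasi-likelihood test (edgeR 4.0.16, R 4.3.3) with TMM factors, filterByExpr, which left 24316 regions, and Benjamini-Hochberg adjustment. Standard errors were derived from the fold change and its F statistic. For trended offsets, loess (span 0.3, 0.5 reads added) fitted how far the log count in a library departs from the mean of its region, along that mean. Other alternatives were DESeq2 size factors, total counts, no count filter, limma-voom (limma 3.58.1), the Wald test of DESeq2 1.42.0, a replicate block, autosomes, each library left out, other distances and regions in all 6 peak lists. Trended offsets with a library left out were added after the data were seen. Fits and rules were tested on simulated data.

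Gene spans came from the 21900 protein-coding genes of RefSeq GRCm38.p6, the assembly of mm10. Strand came from the RefSeq promoter table, which matched 17492 of them (79.9%). Distance runs from the region's edge, and a region's class uses its 2 nearest genes. Named members were the 10 higher and the 10 lower with the smallest p, the 3 with the smallest p in each class (divergent, other start-start, start-end, end-end), the 5 strongest, a list of well-known pairs and up to 4 called members per gene list. Members with the smallest trended p, all end-end members and members at 3 genes were added after their values were seen. The members and lists were chosen with earlier results of these data known. No column of the matrix was left out. Regions that meet these rules but are not reported here still enter the counts. Precision rests on counting noise and on variation between libraries, and depth was 2219136 to 3089230 counts per library.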

Additional observations from a re-analysis of the deposited data

How the results depend on the processing

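Libraries of the same replicate number showed no shared deviation from their group means (correlations 0.000449, -0.104 and -0.027). This cannot show whether they came from the same animal or culture. A replicate block gave 471 higher and 15 lower shared regions and changed no call among the named regions. Shared regions were higher in 352 cases and lower in 6 with the DESeq2 Wald test, 571 and 14 with DESeq2 size factors, 221 and 55 with total counts and 30 and 22 with trended offsets. They were 335 and 3 of the 939 where the region covers the ends (35.7% higher). Of the 1490 in all 6 peak lists they were 490 and 8 (32.9% higher), beside 30.6% higher in the reported fit. At 2.5 kb they were 675 and 52, in a larger set of regions, so these counts do not show a larger share. The median log2 fold change was 0.191 where the region covers the ends, 0.187 in all 6 peak lists and 0.159 at 2.5 kb. Leaving out 1 library gave 361 to 457 higher and 9 to 25 lower, with a median log2 fold change of 0.17 to 0.21. With trended offsets and without controls 1 to 3 in turn, 12, 36 and 11 were higher, 11, 31 and 9 lower and the medians 0.033, 0.024 and 0.0304. Without palmitate 1 to 3 in turn, 20, 14 and 8 were higher, 14, 8 and 10 lower and the medians 0.039, 0.036 and 0.0308. The median was 0.18 in the reported fit, 0.21 with DESeq2 size factors, 0.21 in the Wald test, 0.064 with total counts and 0.033 with trended offsets. It was above 0 under all of these settings. The difference in the share of reads, 1.13 percentage points, was 0.791 where regions cover the ends, 1.42 at 2.5 kb and 1.00 to 1.22 with a library left out. Over the whole matrix 2894 regions were higher and 3078 lower, against 1282 and 4331 with total counts, 1888 and 1236 in the Wald test and 498 and 947 with trended offsets, and the lower ones numbered 1871 without control 3 and 1919 without palmitate 3. With trended offsets the sign turned at Ubxn6/Hdgfl2 (-0.043), Khsrp/Slc25a41 (-0.064), Cdca2/Kctd9 (-0.0023), Cox4i1/Emc8 (-0.021), Atp6v1d/Eif2s1 (-0.048) and Eif4a2/Rfc4 (0.081). These offsets remove any change that follows strength, whatever its source, and the cause of the trend was not tested. Depth limits the weak regions: Eif4a2/Rfc4 rests on 2 to 14 reads per library.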

Other observations

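Peaks at ends of 2 or more genes numbered 1586, 1628 and 1637 in the lists of controls 1 to 3 and 1581, 1565 and 1573 in those of palmitate 1 to 3, where the lists hold 22359 to 27122 and 20201 to 21502 peaks. Of these peaks 14, 31 and 32 in controls and 8, 13 and 19 in palmitate overlapped no region of the matrix, so nearly all shared ends with a peak entered the counts.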
